A study of Sus scrofa with 21 samples.

Results

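ECHDC1, KCNQ3, TMEM98, FAM151B, OAZ3 and TAGLN are 6 genes whose microarray probes, except 1 of the 3 OAZ3 probes, lay at or near background in the blood of most DD pigs and were detected in the blood of most LW pigs. They were followed through every probe whose gene name in the scanner files is one of the 6 symbols, with letter case ignored, which gave 9 of the 60306 probes besides controls, for 6 of the 11531 genes that the array names. ECHDC1 had 2 probes, OAZ3 had 3, and the other 4 genes had 1 each. The genes were chosen by the difference in these deposited values and detection flags between the breeds, so the breed values of these probes are given as a description, without a test.

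The animals were 10 DD pigs and 11 LW pigs, all sampled at 60 days and given the same standard feed without restriction. DD pigs (SLAdd) are minipigs of a herd kept inbred and homozygous at the swine leukocyte antigen complex, the pig's major histocompatibility locus, and LW pigs are Large White, a lean commercial breed. The DD pigs came from 5 sows and the LW pigs from 6, so that most animals had a littermate in the series and the animals of a breed are not fully independent. Whole blood RNA was hybridized to a one-colour Agilent pig array, 1 array per pig, on 3 chips that each held both breeds. Breed and herd go together in this design and cannot be told apart.

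ECHDC1 encodes a cytosolic decarboxylase that clears ethylmalonyl-CoA and methylmalonyl-CoA, side products of acetyl-CoA carboxylase, and so keeps fatty acid synthesis free of branched chains. KCNQ3 is a subunit of the voltage-gated potassium channels that carry the M-current of neurons, TMEM98 is a membrane protein that binds the myelin regulatory factor MYRF, and FAM151B is a protein of the retina with few other known roles. OAZ3 is the testis form of ornithine decarboxylase antizyme, which brakes polyamine synthesis, and TAGLN (transgelin, SM22) is an actin-binding protein of smooth muscle. Blood is not the tissue for which the last 5 are best known. In whole blood, fewer cells of a type and less RNA per cell cannot be told apart.

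Probes of ECHDC1, OAZ3 and TAGLN that were taken as coding are shown because they tell which stretch of sequence each value comes from. Their place was not checked against a reference transcript. Each is 60 bases long and is written 5′ to 3′ as in the scanner files. Capitals mark bases in runs of at least 16 that the probe shares with another probe of the array of different sequence. The OAZ3 probes A_72_P437459 and O3277 share all 60 bases with each other and are written once, in lower case.
ECHDC1 probe O11215: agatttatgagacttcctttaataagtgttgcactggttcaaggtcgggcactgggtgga
ECHDC1-linked probe A_72_P257652: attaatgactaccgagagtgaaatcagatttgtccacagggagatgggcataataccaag
ECHDC1-linked probe A_72_P496586: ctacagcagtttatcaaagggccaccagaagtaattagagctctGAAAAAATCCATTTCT
ECHDC1-linked probe A_72_P580827: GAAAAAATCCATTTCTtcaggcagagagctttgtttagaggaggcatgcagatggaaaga
OAZ3 probe A_72_P619999: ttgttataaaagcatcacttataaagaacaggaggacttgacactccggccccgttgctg
OAZ3 probes A_72_P437459 and O3277: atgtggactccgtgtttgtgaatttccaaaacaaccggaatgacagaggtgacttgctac
TAGLN probe A_72_P079791: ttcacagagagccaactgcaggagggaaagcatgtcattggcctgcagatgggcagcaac
Of the probes with an unsettled place in the transcript, the first 30 bases are given for 4, to identify them, which may end within a shared run.
ECHDC1 probe A_72_P007421: ttggggtggacctgccaattttagaggctg
ECHDC1-linked probe A_72_P530359: ccatatgccgtggtagcaGCCCTAAAGAGA
TMEM98 probe O4355: gcaattttacctagccaccactaggtggag
FAM151B probe CUST_516_PI427286967: attaacggagagtcacacaagggaagcgtg

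All 9 probes had a lower mean in DD pigs, and 8 of 9 did so on each of the 3 chips. In 4 of 9 every DD pig lay below every LW pig, a pattern shown by 0.214% of all probes, and in 0 of 9 every DD pig lay above (0.0779% of all probes). Likewise 4 of 9 were well above background, by the scanner software's flag, on 0 DD arrays and at least 7 LW arrays, which held for 0.254% of all probes. Allowing up to 3 DD arrays, the count was 8 of 9, against 2.79% of all probes. These counts describe how the genes were chosen and are given only as background. By the scanner software's flag for a positive and significant signal, more DD arrays passed. They were 8 and 7 of 10 for the ECHDC1 probes, 6 for KCNQ3 and FAM151B, and 3 for TMEM98 and TAGLN. For OAZ3 they were 10 at base 88, and 6 and 7 at base 451. On LW arrays the 9 probes passed on 9 to 11. The shares of all probes for this flag are not given here. The reverse pattern, 0 LW arrays and at least 7 DD arrays, was found in 3 probes of the array (0.00497%). Values below are the deposited log2 values after quantile normalization, on which the median difference of all probes was -0.03.

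**Figure D1:**
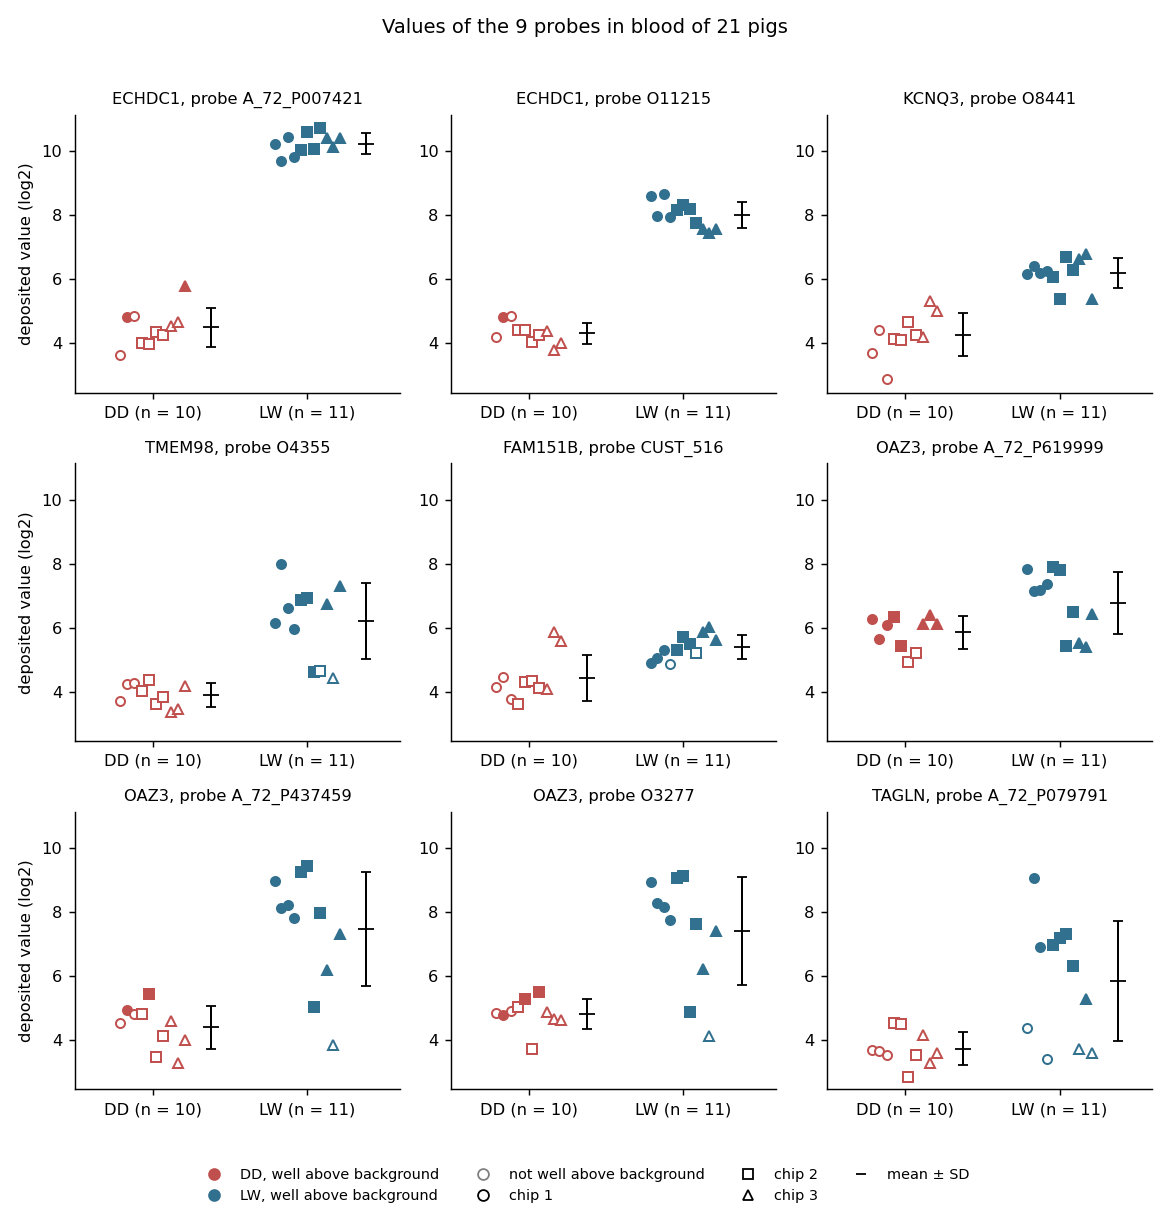
Deposited log2 values of the 9 probes in each of the 10 DD and 11 LW pigs, 1 panel per probe, with the mean ± SD at the right of each group. Filled symbols are arrays on which the probe was well above background and symbol shapes are the 3 chips. The groups stand apart in both ECHDC1 panels and nearly touch in the KCNQ3 panel, while in the OAZ3 and TAGLN panels some LW pigs sit among the DD pigs.

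The DD arrays were dimmer than the LW arrays. Brightness, taken as the 75th percentile of an array's processed signal on a log2 scale, averaged 7.53 ± 0.54 (SD) for the 10 DD pigs, while the 11 LW pigs averaged 8.22 ± 0.38. The share of probes detected above background ran from 44.7% to 61.0% on DD arrays and from 53.0% to 63.8% on LW arrays. On chip 1 mean brightness was 7.95 in 3 DD and 8.03 in 4 LW arrays, with single arrays from 7.59 to 8.49 and from 7.37 to 8.62. On that chip the 9 probes were lower in DD pigs by between 0.90 (FAM151B) and 5.60 (ECHDC1) on the log2 scale. Mean brightness was 7.55 in DD and 8.31 in LW arrays on chip 2, and 7.09 and 8.36 on chip 3. Whether brightness took part in the differences on any chip was not tested beyond the adjustment for brightness given with the limits. Among marker genes of blood cells, 4 of 8 erythroid markers rose and 4 of 8 T cell markers fell in DD pigs (limma, adjusted p below the threshold of 0.05). Of all genes tested, 11.2% were higher and 12.5% lower. Elsewhere 1 of 7 platelet markers fell, and 1 of 7 B cell and 1 of 5 granulocyte markers rose. Of 7 monocyte markers 1 rose and 1 fell, and 0 of 6 NK cell markers passed. The mean level of the T cell markers ranged from 8.30 to 9.53 in DD pigs and from 8.73 to 9.72 in LW pigs, and that of the erythroid markers from 12.16 to 13.58 and from 12.00 to 13.13. The part of any of these cell types in the results was not tested.

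ECHDC1 showed the widest separation of the 6 genes. The gene lies at chr1:35852939-35909314 of the pig assembly Sscrofa11.1, by the RefSeq gene table. Its probe A_72_P007421 had a lowest value of 3.64, a median of 4.44 and a highest value of 5.78 in the 10 DD pigs. In the 11 LW pigs the lowest value was 9.68, the median 10.22 and the highest 10.73. Every LW pig was therefore far above every DD pig, with 3.90 log2 units between the highest DD and the lowest LW pig. The means were 4.49 ± 0.60 and 10.23 ± 0.32 (SD), a difference of -5.74, and within chips 1, 2 and 3 the difference was -5.60, -6.21 and -5.33. The probe was well above background on 2 of 10 DD arrays and 11 of 11 LW arrays. The 2 DD arrays were those of pig 6, at 4.82, and pig 23, at 5.78.

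The other ECHDC1 probe, O11215, is spelled in lower case in the scanner files. It ranged from 3.80 to 4.84 in DD pigs, with a median of 4.32, and from 7.45 to 8.67 in LW pigs, with a median of 7.98. The gap between the groups was 2.61, the difference of the means was -3.70, and the 3 chips gave -3.68, -3.82 and -3.46. It was well above background on 1 DD array, again that of pig 6, and on all 11 LW arrays. Both probes named ECHDC1 thus separated the breeds completely and were high in every LW pig.

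Another 7 probes carry no gene symbol but are tied to ECHDC1 through their accessions. Of these, 4 share the mRNA record of probe A_72_P007421 or a record listed with it (1 of the 4 also names the Ensembl transcript ENSSSCT00000004659), and the other 3 name only that transcript and were picked up after values had been seen. Over all 9 probes named or linked to ECHDC1, 7 had no overlap between the breeds, with DD below LW, against 0.214% of all probes. Of the 9, 6 were well above background on 0 DD arrays, and 7 on all 11 LW arrays. Both held for 4 of them, against 0.0216% of all probes. The shares for each detection count alone are not given here. These counts describe a gene chosen on this contrast and are no separate support. The 3 linked probes taken as coding, at bases 551, 780 and 824 of the transcript as the scanner files count them, differed by -4.28, -4.57 and -5.55. On the deposited values, their LW level was at least 15.8-fold, 22.4-fold and 37.2-fold that of DD pigs. This bound takes, for each DD array, the lowest signal called well above background, or the probe's own value where that was higher. Such bounds, here and for the genes below, hold for the deposited values only. The probe at base 1178 differed by -4.01, or at least 12.4-fold.

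The remaining linked probes showed smaller differences. Their start positions are counted on other sequence records than that transcript, so their order along it is not known. The probe at base 1535, A_72_P553181, was well above background on 0 DD and 8 LW arrays and differed by -0.96, at least 1.81-fold, with overlap. The probe at base 1912, A_72_P591025, was so on 0 DD and 10 LW arrays and differed by -1.90, at least 2.57-fold, with no overlap. LW means were themselves low, 5.07 at base 1535 and 5.37 at base 1912. At base 2274, A_72_P530359 was bright in every pig, at 12.34 ± 0.34 in DD and 12.81 ± 0.44 in LW pigs, and differed by -0.46. This last probe shares a run of 16 bases with 10 other probes of the array on the same strand and 5 on the opposite strand, so its signal need not come from ECHDC1 alone.

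**Figure D2:**
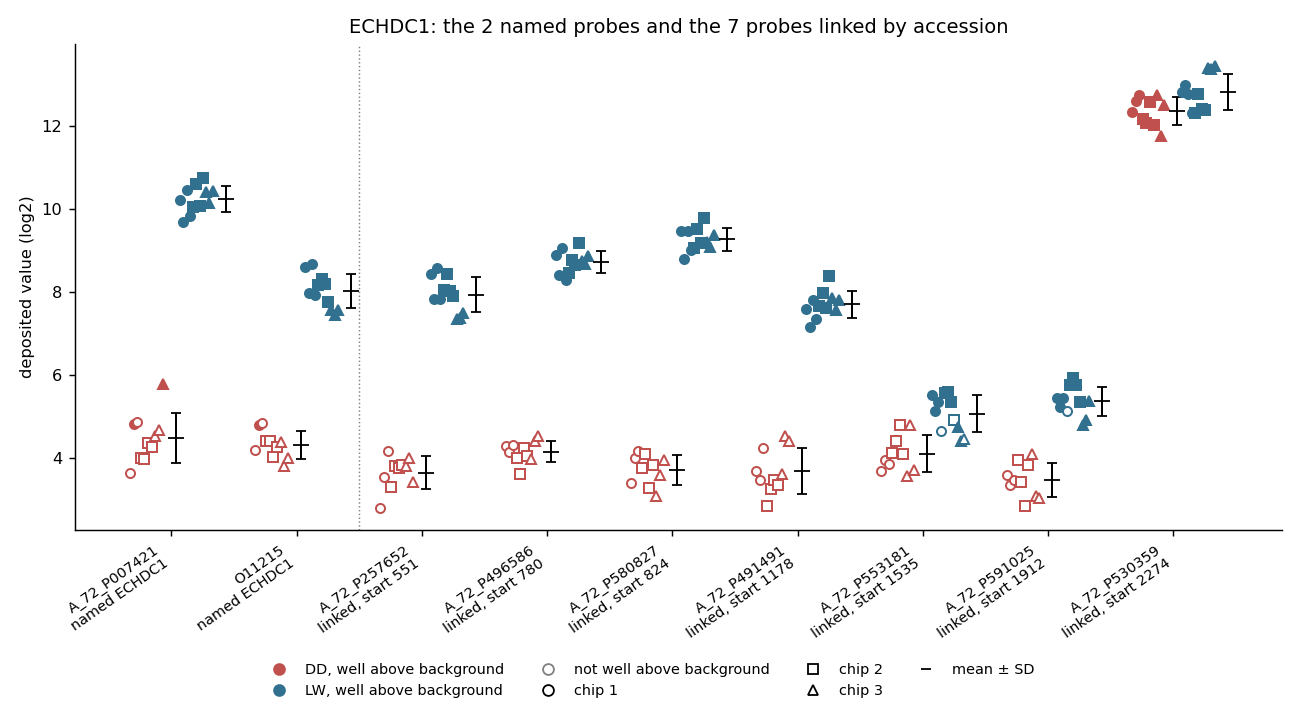
Deposited log2 values of the 2 probes named ECHDC1 and the 7 probes linked to it by accession, ordered by the start position given in the scanner files, for 10 DD pigs (red) and 11 LW pigs (blue) with the mean ± SD of each. Bases 1535, 1912 and 2274 are counted on other sequence records than bases 551 to 1178. From base 551 to base 1178 the breeds are separated by at least 2.63 log2 units, at bases 1535 and 1912 they lie close together, and at base 2274 both are bright.

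The LW pigs also varied alike at groups of ECHDC1 probes. Over the 11 LW pigs, A_72_P007421 correlated with the probes at bases 780, 824 and 1178 (Pearson's r 0.877, 0.919 and 0.949) and hardly with O11215 (r = -0.002). O11215 correlated with the probes at bases 551 and 1535 (r = 0.963 and 0.859). These are descriptions over 11 arrays that share 3 chips, and in both O11215 and the probe at base 551 the 3 LW pigs of chip 3 were the lowest of the 11.

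KCNQ3 was low in every DD pig and detected in every LW pig, but on the deposited values the breeds nearly met. The gene lies at chr4:8669969-8978656 (Sscrofa11.1) and had the single probe O8441, which the files tie to a human KCNQ3 mRNA record. DD pigs ranged from 2.89 to 5.31 with a median of 4.22, and LW pigs from 5.37 to 6.79 with a median of 6.24. The highest DD pig, 21, lay 0.05 below the lowest LW pig, 24. Pigs 21 and 23, the highest DD pigs at 5.31 and 5.02, had the dimmest arrays of the series (brightness 6.56 and 7.02). In the processed signal, before quantile normalization and not on a log scale, the highest DD value was 9.76 and the lowest LW value 24.88. The means were 4.27 ± 0.68 and 6.20 ± 0.47 (SD), a difference of -1.93, and the 3 chips gave -2.58, -1.82 and -1.42. The probe was well above background on 0 of 10 DD and 11 of 11 LW arrays. On the deposited values this sets a bound of at least 3.40-fold. Among the LW pigs, the littermates 12 and 24 were the 2 lowest, at 5.39 and 5.37, and the other 9 lay between 6.07 and 6.79.

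The pattern of KCNQ3, 0 DD arrays and all 11 LW arrays, was shared by 13 of all probes (0.0216%). Of these 13, 1 is the KCNQ3 probe, 4 are the ECHDC1-linked probes of transcript ENSSSCT00000004659, and 8 are other probes.

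TMEM98, at chr12:42087691-42101152 (Sscrofa11.1), was low in all DD pigs and in some LW pigs as well. Its probe O4355 ranged from 3.35 to 4.35 in DD pigs, with a median of 3.92, and from 4.42 to 7.99 in LW pigs, with a median of 6.60. The groups did not overlap, by a margin of 0.07. The means were 3.90 ± 0.37 and 6.20 ± 1.18 (SD), a difference of -2.30, and the chips gave -2.60, -1.81 and -2.50. LW pigs 22, 14 and 15 were the lowest, at 4.42, 4.62 and 4.64, and the other 8 lay at 5.96 or above. Pigs 14 and 22 are littermates, whereas the littermate of pig 15, pig 5, stood at 6.60. The probe was well above background on 0 DD arrays and 9 of 11 LW arrays, missing in pigs 15 and 22. On the deposited values the LW mean was at least 4.12-fold that of DD pigs.

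FAM151B, at chr2:89109259-89144270 (Sscrofa11.1), had the smallest difference among the 6 leading probes and the breeds overlapped. Its probe ranged from 3.61 to 5.87 in DD pigs, with a median of 4.23, and from 4.87 to 6.03 in LW pigs, with a median of 5.30. The means were 4.42 ± 0.73 and 5.39 ± 0.38 (SD), a difference of -0.97, with -0.90, -1.34 and -0.67 within the chips. DD pigs 21 and 23 were high, at 5.87 and 5.57, and their arrays were the 2 dimmest of the series (brightness 6.56 and 7.02). Only 2 LW pigs, 18 and 22, lay above all DD pigs. The probe was well above background on 0 DD and 9 LW arrays, which sets a bound of at least 1.86-fold.

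The name of the FAM151B probe is itself unsettled, because the scanner files describe it as E2F-associated phosphoprotein, the product of EAPP and not of FAM151B. The 7 probes named EAPP differed between the breeds by -0.24 to 0.16, and all 7 overlapped. They were well above background on 4 to 10 DD arrays and on 10 or 11 LW arrays. The probe named FAM151B therefore did not behave like any of the EAPP probes, and which transcript it reports cannot be told from its description.

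OAZ3, at chr4:97439993-97448493 (Sscrofa11.1), differed between its probes and between LW litters. Probe A_72_P437459, at base 451 of the pig OAZ3 mRNA, ranged from 3.27 to 5.43 in DD pigs with a median of 4.56, and from 3.84 to 9.44 in LW pigs with a median of 7.98. The means were 4.40 ± 0.67 and 7.47 ± 1.78 (SD), a difference of -3.07, with -3.53, -3.46 and -1.82 within the chips. LW pigs 14 and 22, the same littermates that were low for TMEM98, stood among the DD pigs at 5.02 and 3.84. The other 9 LW pigs lay above all DD pigs, the nearest of them pig 18 at 6.18. The probe was well above background on 2 DD and 10 LW arrays.

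Probe O3277 carries the identical 60 bases and serves as a repeat measurement. It gave means of 4.82 ± 0.47 in DD and 7.41 ± 1.67 in LW pigs (SD), a difference of -2.58, and pigs 14 and 22 were again the lowest LW pigs, at 4.86 and 4.13. The 2 spots differed by 0.317 on average over the 21 arrays and by 1.39 at most. Their r was 0.995 over the LW pigs and 0.577 over the DD pigs, where most values were not well above background.

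Probe A_72_P619999, at base 88 of the same mRNA, was not near background in DD pigs. It was well above background on 8 of 10 DD and 11 of 11 LW arrays, and ranged from 4.94 to 6.39 in DD pigs and from 5.40 to 7.88 in LW pigs. The means were 5.85 ± 0.51 and 6.77 ± 0.97 (SD), a difference of -0.92, and on chip 3 the sign was the other way, with DD pigs higher by 0.43. In the LW pigs it followed the probe at base 451 (r = 0.931, n = 11), and pigs 22, 14 and 18 were lowest on both. In the DD pigs the 2 probes were unrelated (r = 0.041, n = 10). So the 3 OAZ3 probes were all lower in DD pigs on average, but only those at base 451 reached background.

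TAGLN, at chr9:44561756-44567385 (Sscrofa11.1), was low in every DD pig and split the LW pigs. Its probe A_72_P079791 ranged from 2.85 to 4.54 in DD pigs, with a median of 3.62, and from 3.39 to 9.07 in LW pigs, with a median of 6.31. The means were 3.73 ± 0.53 and 5.83 ± 1.87 (SD), a difference of -2.10, with -2.31, -3.09 and -0.52 within the chips. It was well above background on 0 DD and 7 LW arrays, a bound of at least 3.23-fold. LW pigs 2, 7, 18 and 24 were not well above background, at 4.38, 3.39, 3.71 and 3.59, inside the range of the DD pigs. Pigs 7 and 18 are littermates, but pig 12, the littermate of pig 24, stood at 7.19. The highest, pig 4, stood at 9.07 and its littermate, pig 9, at 6.98.

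**Figure D3:**
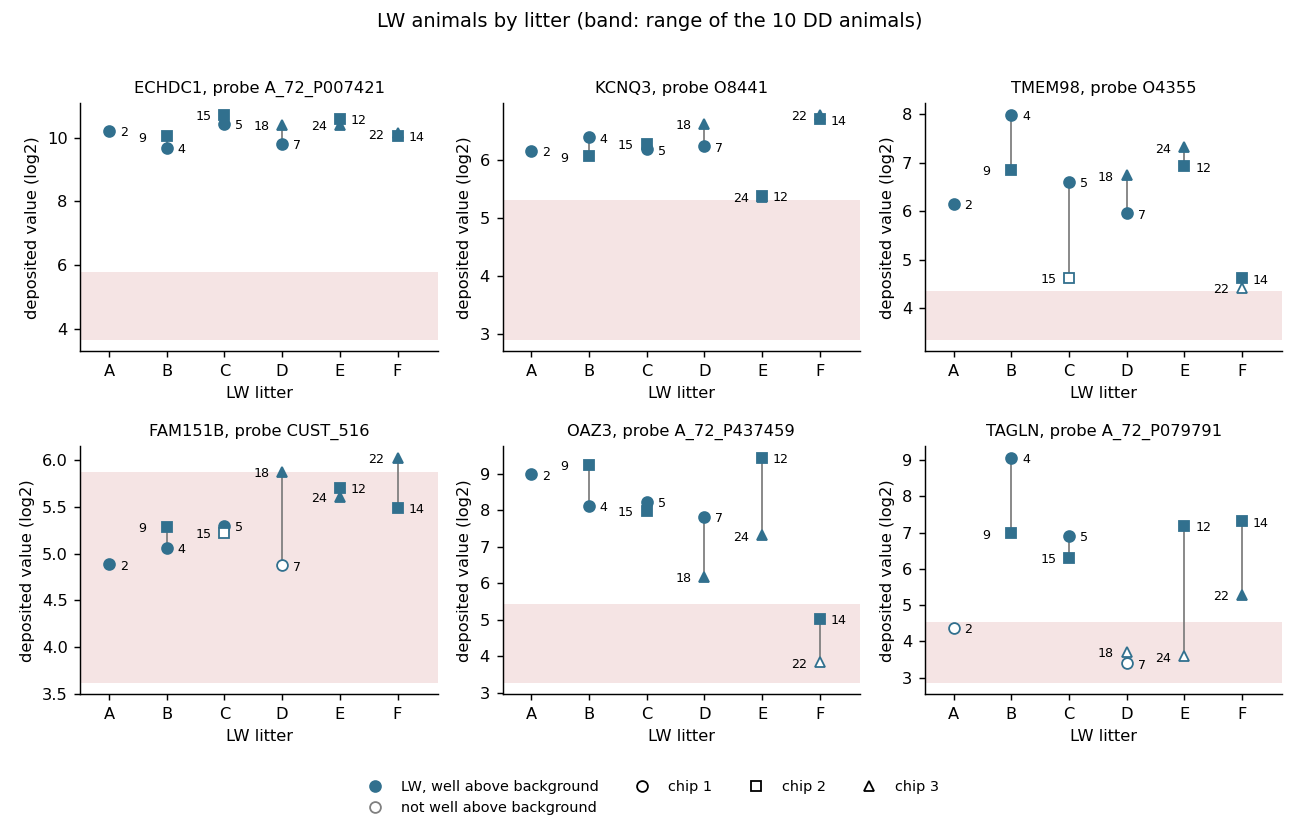
Deposited log2 values of the leading probe of each gene in the 11 LW pigs, arranged by litter (letters A to F, pig numbers beside the symbols, littermates joined), with the range of the 10 DD pigs as a band. Litter F (pigs 14 and 22) is low for TMEM98 and OAZ3 and highest for KCNQ3, litter E (pigs 12 and 24) is lowest for KCNQ3, and ECHDC1 is far above the band in all 6 litters.

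Whether all LW pigs were high thus depended on the gene. All 11 exceeded every DD pig for both ECHDC1 probes, KCNQ3 and TMEM98, 9 of 11 did so for OAZ3 at base 451, 7 of 11 for TAGLN and 2 of 11 for FAM151B. The pigs that failed to exceed them were different ones for OAZ3 (14 and 22) and TAGLN (2, 7, 18 and 24). LW litter F thus stood at the bottom for 2 genes, and at the top for KCNQ3, where pigs 14 and 22 had the 2 highest values (6.71 and 6.79).

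**Figure D4:**
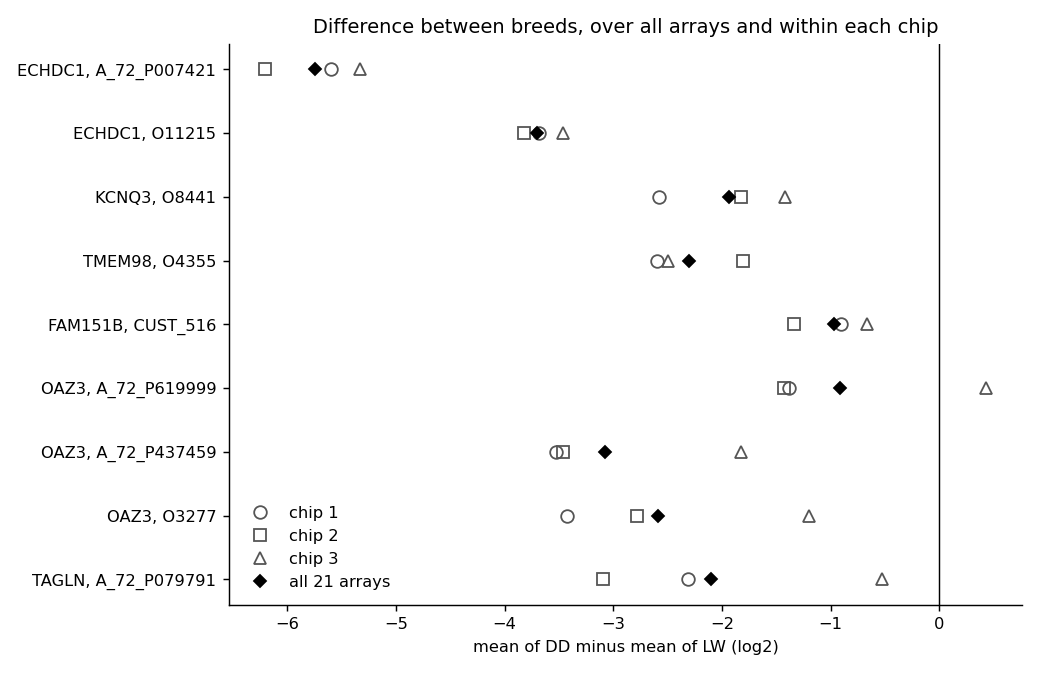
Difference between the DD mean and the LW mean (log2) for each of the 9 probes, over all 21 arrays (diamonds) and within each of the 3 chips (open symbols). The ECHDC1 differences are alike on the 3 chips, whereas OAZ3 and TAGLN differ least on chip 3 and the OAZ3 probe at base 88 turns to 0.43 there.

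The choice of genes used low signal in DD pigs and detection in LW pigs. Array brightness was not itself a criterion, but the share of probes detected was lower on some of the dimmer DD arrays. Whether brightness entered the choice through detection was not tested. Within the LW breed, the level of each leading probe was set against array brightness over the 6 litter means, with exact permutation of the pairings. Pearson's r was 0.142 for ECHDC1, 0.149 for KCNQ3, -0.556 for TMEM98, 0.517 for FAM151B, -0.511 for OAZ3 and 0.576 for TAGLN. Spearman's rho was 0.143, 0.257, -0.543, 0.543, -0.429 and 0.600 in that order. None of the 6 passed the threshold (two-sided exact permutation, raw p from 0.2056 to 0.8208 for r and from 0.2417 to 0.8028 for rho, lowest adjusted p 0.4188 and 0.5944). Without the 2 litters farthest from the median brightness r became 0.680, -0.372, -0.132, 0.790, -0.984 and 0.309, over 4 litters. With 6 litters, a miss of the threshold does not show that level and brightness were unrelated.

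The genes most alike in pattern over all 21 pigs were, for ECHDC1, the RNA-binding protein gene CELF2 (r = 0.950), the splicing factor gene CWC15 (0.942) and the glutathione transferase gene GSTK1 (0.929), whose own differences were -1.52, -0.91 and -1.24. For OAZ3 they were TUFT1 (0.902), TMEM98 (0.873) and MYL6 (0.867), and for TMEM98 they were ALDH5A1 (0.919), CYP1A2 (0.901) and ASB1 (0.879). TUFT1 lies near OAZ3, starting at base 97648817 of chromosome 4 where OAZ3 ends at 97448493, and itself differed by -0.77. It lies beyond the tested neighbours of OAZ3 counted below. KCNQ3 was most like PAM, PIR and RTN4 (0.879, 0.874 and 0.870), FAM151B like GRK3, KCNQ3 and ABHD17B (0.839, 0.836 and 0.819), and TAGLN like AGPAT4, EPN1 and DIAPH3 (0.809, 0.784 and 0.772). Likeness over 21 pigs largely reflects the breed difference itself, and the r values carry no test. Over the 11 LW pigs alone, with chip means removed, other genes came first: ASH2L for ECHDC1 (0.946), ZBTB38 for KCNQ3 (0.927), CAPN7 for TMEM98 (0.956), PTK2 for FAM151B (0.968), MATK for OAZ3 (0.944) and RRAGD for TAGLN (0.951), each the highest of 9860 genes over few animals. Behind them came LRWD1 and CDR2L, SCML4 and STAB2, CBX1, AMY2 and SLC25A43, GBGT1 and FGD5, and WRB and TRAPPC4, in the same order of genes.

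Of 36 tested protein-coding neighbours of the 6 genes on their chromosomes, 3 on each side of a gene, 7 passed the limma test (19.4%, against 23.7% of all genes tested), 4 of them higher and 3 lower in DD pigs. Next to ECHDC1, RNF146, a ubiquitin ligase gene 475 bases away, differed by -0.34 ± 0.13 (SE), which missed the threshold (limma, adjusted p = 0.0632), and 0 of the 6 ECHDC1 neighbours passed. Near TAGLN, SIDT2 was lower by 0.43 (adjusted p = 0.0355) and BACE1 higher by 0.38 (0.0350), while PCSK7, 188 bases from TAGLN, differed by 0.02 (0.925).

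Further neighbours that passed were CCL8 near TMEM98, a monocyte chemokine (1.00, adjusted p = 0.0238), OC90 next to KCNQ3 (0.72, 0.0308), CELF3 near OAZ3 (0.54, 0.0199) and SSBP2 near FAM151B (-0.33, 0.0454). MRPL9, which overlaps OAZ3 in position, differed by -0.13 (0.449), and MYO1D, the gene after TMEM98, by 0.21 (0.210). None of the 7 calls remained without chip 3 or with array brightness in the model.

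**Figure D5:**
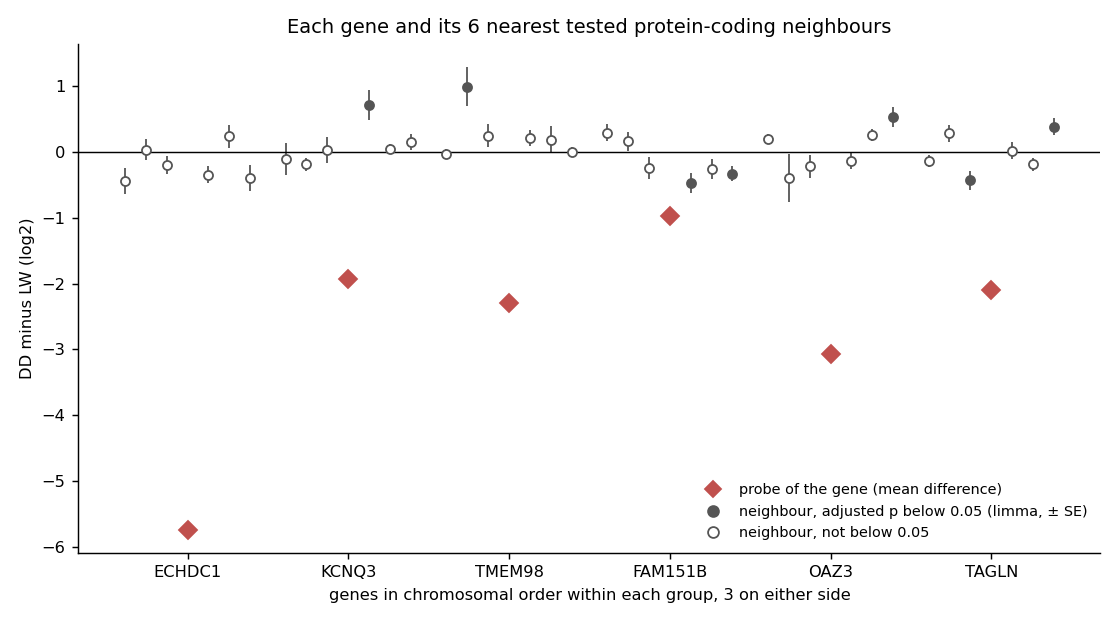
Difference between DD and LW pigs (log2) for the leading probe of each of the 6 genes (diamonds) and for its 3 nearest tested protein-coding genes on either side (circles, limma estimate ± SE, filled where adjusted p is below 0.05). The highest neighbour lies at 1.00, and in each group the neighbours lie above the diamond.

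The pathways around the 6 genes were read from lists of related genes in the same model over 9860 genes, where the higher genes made up 11.2% and the lower genes 12.5%, and the median difference was -0.06. Of 18 tested genes of propionyl-CoA and malonyl-CoA metabolism, the setting in which ECHDC1 works, 2 rose and 1 fell, with a median of -0.12. CRAT, carnitine acetyltransferase, rose by 0.78 ± 0.23 (SE, adjusted p = 0.0229), ECHDC2, a mitochondrial paralog of ECHDC1, rose by 0.52 ± 0.17 (0.0308), and MUT, methylmalonyl-CoA mutase, fell by 0.30 ± 0.09 (0.0237). ECHDC3, the other paralog, differed by 0.32 and did not pass (0.120), nor did ACACA, the carboxylase whose side product ECHDC1 removes (-0.18, 0.265).

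Among 11 tested KCNQ subunits and regulators, 1 rose and 2 fell, with a median of -0.07. NEDD4L, a ubiquitin ligase that removes KCNQ channels from the membrane, rose by 0.77 ± 0.20 (SE, adjusted p = 0.0121), and the kinase gene SGK1 and the lipid kinase gene PIP5K1C fell by 0.61 (0.0452) and 0.30 (0.0213). The paralog KCNQ5 was the only other KCNQ subunit tested, at -0.23 (0.338), and KCNQ1 was well above background on 0 arrays of either breed. Of 18 polyamine genes only ARG1, arginase, passed, higher by 0.68 ± 0.24 (0.0426). The paralogs of OAZ3, OAZ1 (0.23, 0.143) and OAZ2 (-0.02, 0.924), and its target ODC1, ornithine decarboxylase (-0.05, 0.862), did not. The list of paralogs and partners of FAM151B and TMEM98 held 2 tested genes, FAM151A (0.33, 0.211) and FRAT2 (0.00, 0.980), neither past the threshold.

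Of 18 smooth muscle and actin-binding genes, 2 rose and 5 fell in DD pigs, with a median of -0.19. CALD1, caldesmon, fell by 1.04 ± 0.30 (SE, adjusted p = 0.0201), ACTA2, smooth muscle actin, by 0.57 ± 0.20 (0.0435), and TPM2, tropomyosin, by 0.55 ± 0.19 (0.0422), while MYOCD, a cofactor of smooth muscle transcription, rose by 0.56 ± 0.16 (0.0197). Of the paralogs of TAGLN, TAGLN3 rose by 0.53 ± 0.14 (0.0169) and TAGLN2 differed by 0.02 (0.964). VCL, vinculin, named here after its values were seen, fell by 0.55 ± 0.08 (0.000206) and stayed past the threshold under all 12 alternative fits. The calls of CRAT, ECHDC2, MUT, NEDD4L, SGK1, PIP5K1C, ARG1, TPM2, TAGLN3 and MYOCD were lost both without chip 3 and with brightness in the model. ACTA2 lost its call in 9 of the 12 alternative fits and differed by -0.06 without chip 2, and CALD1 lost its call without chip 1 (-0.78), without chip 3 (-1.52) and with scaling to the 75th percentile (-0.92).

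Markers of the tissues for which TAGLN, OAZ3 and KCNQ3 are best known were also examined. MYH11, smooth muscle myosin, was well above background on at most 1 DD and 0 LW arrays, and the mean level of 10 smooth muscle and fibroblast markers ranged from 6.12 to 7.22 in DD and from 6.28 to 6.93 in LW pigs, with 1 higher and 1 lower. Of 5 tested male germ cell markers 2 were higher in DD pigs, PRM1 (0.43, adjusted p = 0.0286) and ACRV1 (0.45, 0.0265), with a mean level of 4.76 to 5.73 in DD and 4.67 to 5.26 in LW pigs. DDX4, a defining germ cell gene, was well above background on at most 2 DD and 0 LW arrays. Of 5 tested neuronal markers none passed (median -0.06, mean level 4.60 to 5.00 in DD and 4.48 to 5.14 in LW pigs), and the defining SYT1 was well above background on 0 arrays. Other listed markers were detected. ACTA2, DES, ACTG2, LUM, ODF2 and SYN1 each had a probe well above background on 10 DD and 11 LW arrays. For PRM1 these counts were 9 and 11, and for ACRV1 9 and 10. Each list thus held both detected and undetected markers.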

How the data were processed

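The main values were the log2 matrix deposited by the authors, made from spot intensities by a normexp background step and quantile normalization. The deposited scanner files (Agilent Feature Extraction 10.7.3.1) hold intensity values and, per probe, flags such as that for a signal well above background. Of the matrix rows, 2477 carry no probe name. Breed came from the labels, sow and chip from the study's sample records and the array names, and age from its methods. Intensities re-computed here matched each deposited array (r at least 0.998).

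The lowest 25% of probes by mean were removed and the probes of a gene averaged. Differences were fitted with limma 3.58.1 in R 4.3.3 (chip fixed, sow as a random block through duplicateCorrelation with statmod 1.5.0, Benjamini-Hochberg over 9860 genes). The consensus correlation was -0.10, a negative value, so the sow block did not make the breed test stricter for related littermates. Without the sow block 1760 genes passed, against 2336 with it. The model was also run on simulated data with independent arrays and no litter, chip or brightness effect. That run cannot show how the fit behaves where such effects are present. Symbols came from the scanner files for 21124 probes, older symbols for 609 and accessions for 1900, leaving 36673 unnamed. Correlations used Python 3.11.15 with numpy 2.4.6. The 6 genes and the lists were chosen with earlier results of these data known.

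Named genes were the 6 genes, paralogs and at most 4 genes past the threshold per list, the chromosomal neighbours that passed or lie nearest, and the 3 genes most alike in pattern to the leading probe, which is the probe brightest in LW pigs, and some of these are not reported here. Marker genes, the genes beside them that did not pass, and the EAPP and ECHDC1-linked probes were added after values were seen. Positions are those of the RefSeq table of Sscrofa11.1, and no genome sequence was used. The limma p-values set a difference against the spread between animals, most of which had a littermate in the series. The brightness p-values come from permuting 6 litter means. The number of arrays limits precision. Alternatives were other backgrounds, scalings, filters and model terms and each chip left out.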

Additional observations from a re-analysis of the deposited data

Results flagged for a closer look

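In the 10 DD pigs, the OAZ3 probe O3277 had its lowest value, 3.72, in pig 13, and the nearest other pig stood at 4.63. The gap makes up 0.513 of the range, above Dixon's critical value for 10 animals, which about 1 in 20 groups pass by chance. The spot A_72_P437459, with the same sequence, read 3.48 in that pig and 3.27 in pig 21, so pig 13 does not stand apart there. Neither spot was well above background in pig 13.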

How the results depend on the processing

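The sign of all 6 leading probes (DD below LW) held under all 9 alternatives tried on them, while sizes moved with the treatment of low signals. With normexp offset 50 the differences shrank to -4.04 (ECHDC1), -0.83 (KCNQ3), -0.996 (TMEM98), -0.34 (FAM151B), -1.79 (OAZ3) and -0.96 (TAGLN), and with scaling to the 75th percentile they grew to -6.94, -2.97, -3.20, -1.68, -3.54 and -2.51. Adjusted for brightness and chip, they were -5.70 (ECHDC1), -2.11 (KCNQ3), -2.25 (TMEM98), -1.04 (FAM151B), -3.22 (OAZ3) and -1.84 (TAGLN). The bounds given above for KCNQ3, TMEM98, FAM151B and TAGLN are 1.76, 2.04, 0.89 and 1.69 on the log2 scale. With offset 50 the differences of these genes were smaller than their bounds, so the bounds do not hold across processings. By the flag for a positive and significant signal, 2 probes and not 13 showed the pattern of 0 DD and all LW arrays.

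Genes called fell from 2336 to 111 without chip 3, 672 without the chip term and 244 with brightness as a covariate. In its quality control the paper found a technical bias of the third chip, which it modelled as an effect, and removed outlier arrays. Whether that bias took part in the dependence on chip 3 was not tested. Higher in DD were 662 without chip 2, 47 without chip 3, 229 without the chip term and 108 with brightness, against 1101. Lower were 769 with the 75th percentile, 64 without chip 3, 443 without the chip term and 136 with brightness, against 1235. The propionyl-CoA list had 0 calls without chip 3, without the chip term and with brightness. The KCNQ list had 0 in those 3 settings, and 5 with offset 50, the filter on well above background and the brightest probe. The polyamine list had 2 with the 75th percentile or the brightest probe, and 0 without chip 2, chip 3, the filter, the sow block or the chip term and with brightness. The smooth muscle list had 3 (75th percentile), 2 (without chip 2), 2 (without chip 3), 3 (no filter), 4 (no sow block), 2 (no chip term) and 3 (brightness). The list of FAM151B and TMEM98 partners had 1 with the 75th percentile. Neighbours called were 3 without chip 2, 4 without the sow block and 0 without chip 3, without the chip term or with brightness.

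Signs turned for MUT (0.027) and EAPP (0.16) with the brightest probe, OC90 (-0.048) with brightness, TAGLN2 without chip 3 (-0.42) and without the chip term (-0.038), and OAZ2 with the 75th percentile (0.14), without chip 2 (0.078), without chip 3 (0.037) and with brightness (0.24). The cause was not tested. No paired analysis was possible because the pig numbers are not shared between the breeds.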
